A study of Mus musculus with 6 samples.

Results

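Olfactory receptor genes were examined in bulk RNA-seq of mouse basal keratinocytes, as the set of receptor genes that held any appreciable number of reads. A gene was taken as a member when its symbol followed the olfactory receptor pattern (Or, a family number, letters and a member number, with pseudogenes included) and its counts summed over all 6 libraries reached 10. Of 1382 such genes in the GENCODE vM39 annotation, 1379 were listed in the count table, 917 had at least 1 count and 298 (21.6% of those listed) met the rule. The members were thus chosen by their summed counts, and the total of a member is a description of the choice, not a finding. Among the members, 31 stood exactly at 10 counts, such as *Or10ag59*, *Or10d1c*, *Or10g1* and *Or10o1-ps1*, and 49 listed genes missed the rule with 9 counts, such as *Or10ag53*, *Or10ag58*, *Or10al5* and *Or10j2*.

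The samples were Epcam and α6 integrin positive basal keratinocytes, sorted from dorsal skin of E16.5 embryos, with 3 Ctrl and 3 TKO libraries. All embryos carried floxed *Suv39h1* and *Setdb1*, all lacked *Suv39h2* through a germline null allele, and all received tamoxifen. TKO embryos carried K14CreERT2, a recombinase driven by the keratin 14 promoter in basal keratinocytes, and Ctrl embryos did not. The study lists the TKO litters used here as mosaic, so unrecombined cells could be present in a TKO library. Ctrl 1 and TKO 2 were female and the other 4 libraries were male. Total counts were 102159175, 136515436 and 104422632 in Ctrl 1, 2 and 3, and 116308383, 108957256 and 118413082 in TKO 1, 2 and 3. Nothing in the labels says whether libraries of a group came from separate litters, so p-values measure the spread between these samples.

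*Setdb1*, one of the targeted H3K9 methyltransferases, stood at 126, 118 and 121 CPM in Ctrl 1, 2 and 3 and at 95.3, 62.3 and 74.9 CPM in TKO 1, 2 and 3, where CPM are counts scaled to the TMM-adjusted library size. Its groups did not overlap, but the log2 fold change of -0.65 ± 0.16 (SE, n = 3 per group) had an adjusted p-value of 0.286 by edgeR's quasi-likelihood test. *Suv39h1* had 83.7 ± 5.10 CPM in Ctrl and 78.0 ± 10.5 in TKO (SD, n = 3 each), and *Suv39h2* had 16.2 ± 0.784 and 17.5 ± 1.46. Counts over whole genes do not resolve the deleted exons. The sorted cells carried the defining genes of basal keratinocytes. In sum, 8 markers including *Krt5* had 24329, 24101 and 18108 CPM in Ctrl and 15025, 16826 and 19231 CPM in TKO. Among these 8 genes, 4 had a positive and 4 a negative log2 fold change. The lowest was that of *Krt15*, -1.18, with an adjusted p-value of 0.185 by edgeR (0.00103 unadjusted). Markers of differentiated, suprabasal keratinocytes were also abundant: 6 genes led by *Krt1* summed to 18093, 17711 and 19587 CPM in Ctrl and to 15854, 11884 and 12426 CPM in TKO. That sum exceeded the basal one in Ctrl 3 and TKO 1, and it was lower in every TKO library than in every Ctrl library. The most abundant of them, *Krt1* and *Krt10*, had log2 fold changes of -0.51 and -0.42. Their adjusted p-values were 0.658 and 0.762 by edgeR (0.0170 and 0.0348 unadjusted). Of the 6 genes, 3 had a positive log2 fold change, *Loricrin* (0.49), *Sbsn* (0.41) and *Flg* (0.24), and *Ivl* had -0.05. The lower sum thus rested on *Krt1* and *Krt10*, and its part in the receptor counts was not tested.

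Olfactory receptors are G protein-coupled receptors that bind odorants at the cilia of olfactory sensory neurons. They form the largest gene family of the mouse, lie in clusters on most chromosomes, and each mature neuron transcribes a single receptor allele while the rest are silent. In olfactory neurons the silent receptor genes carry H3K9me3, the histone mark that Suv39h1, Suv39h2 and Setdb1 deposit, and other cell types generally do not transcribe the family. Class I receptors, families 51 to 56, sit almost entirely in 1 cluster and resemble the receptors of fish, and class II receptors make up the rest.

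The receptors share a coding stretch at the inner end of the third transmembrane helix, which is shown because it explains how closely the sequences that reads must be assigned to can resemble each other. The stretch was found in 1030 of 1193 genes with a coding sequence (86.3%), and each of its 30 bases was the most frequent one in 55.0% to 100% of those genes. It was searched for by fixed amino acids (M, D, R, A and C at set places), and genes without them were left out. Part of this likeness, with the bases at 100%, was thus set by the search. Some of the members on which the results turn are written here 5′ to 3′ on the coding strand of GRCm39, with capitals at bases equal to the most frequent base over all these genes. *Or10ak7* lies at chr4:118791654-118791683 on the minus strand, *Or2k2* at chr4:58785340-58785369 (minus), *Or51e1* at chr7:102358825-102358854 (plus) and *Or51e2* at chr7:102391831-102391860 (minus). *Or2y7* is a transcribed unprocessed pseudogene, for which the best matching window was taken, at chr11:52046730-52046759 (minus).
Or10ak7: ATGGCtTATGACCGgTATGTGGCCATaTGC
Or2k2: ATGGCCTATGAtCGtTATGTGGCCATCTGt
Or51e1: ATGGCCTtTGACCGCTATGTGGCCATtTGC
Or51e2: ATGGCCTtTGACCGgTAcGTGGCtATCTGC
Or2y7: ATGGCtTtcGACCGCTATGTcGCtgTgTGt
*Or51e1* had 28 of 30 bases equal to the most frequent one, *Or10ak7* and *Or2k2* 27, *Or51e2* 26 and the pseudogene 22. Over the whole coding sequence, *Or10ak7* was 94.4% identical to its closest relative, *Or10ak13*, which held 0 counts in all libraries. *Or13a25* was 90.6% identical to *Or13a17* and *Or2y7*, over its exon, 97.0% identical to *Or2y13*, which held 2 counts. *Or51e1* and *Or51e2* were each other's closest relative at 64.5% identity. How reads that align to several receptor genes were counted is not given in the sources used here.

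Most members held very few reads, and they held them in few libraries. The median total of a member was 15 counts over all 6 libraries, 209 members had totals of 10 to 19, and 12 reached 50 or more. Counts came from a single library for 47 members and from 2 libraries for 115, and only 5 members had a count in all 6. In 233 members a single library held 50% or more of the counts. *Or13a25*, *Or10ak7* and *Or2y7* had the highest totals, with 815, 362 and 285 counts, and together held 20.4% of the 7155 counts on members. Only 10 members passed the filter on low counts and were tested against all 20622 tested genes, and the other 288 could not be tested in that fit.

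Per kilobase of exon, which allows levels to be set beside each other between genes, the pseudogene *Or2y7* was highest with a mean of 0.437 CPM per kb over the 6 libraries. *Or13a25* and *Or10ak7* followed with 0.104 and 0.103 CPM per kb. Next came the pseudogenes *Or2q2-ps1* (0.0856) and *Or2n2-ps1* (0.0666), then *Or51e1* (0.0615), *Or8s5* (0.0517), *Or2k2* (0.0455) and the pseudogene *Or12m1-ps1* (0.0427). *Or4f14d*, *Or9i16* and *Or7c19* completed the 12 highest with 0.0373, 0.0369 and 0.0301 CPM per kb. The order differed between groups, since the mean of *Or2y7* was 0.0779 CPM per kb in Ctrl and 0.795 in TKO and that of *Or10ak7* 0.00184 and 0.204. In Ctrl alone *Or2n2-ps1* (0.108), *Or8s5* (0.101) and *Or2q2-ps1* (0.101) were highest. These ranks rested on few reads, with 2, 12 and 17 counts of *Or2n2-ps1* in Ctrl 1, 2 and 3. *Or2q2-ps1* had 0, 0 and 12, and *Or8s5* held most of its Ctrl counts in Ctrl 3. *Or2n2-ps1* shares exon sequence with *Gm31138* and *Gm69316*, and *Or2q2-ps1* with *Gm54187* and *Gm66798*. The reads of these pseudogenes thus cannot be assigned with certainty. For scale, 3 counts, the floor used here for the smallest detectable level, correspond to 0.0232 to 0.0303 CPM per gene in these libraries.

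The number of receptor genes with reads differed more between Ctrl libraries than between the groups. Of the 1379 listed receptor genes, 492 had at least 1 count in Ctrl 1, 90 in Ctrl 2 and 496 in Ctrl 3, against 127, 180 and 193 in TKO 1, 2 and 3. Ctrl 1 and Ctrl 3 stood apart, and Ctrl 2, the most deeply sequenced library, had the fewest. The 3 TKO libraries lay between Ctrl 2 and the other Ctrl libraries, so the groups overlapped. The 1081 listed receptor genes under the threshold were set aside by the same summed counts, so they are not a set independent of the choice. They also had the most genes with a count in Ctrl 1 and Ctrl 3, with 299, 41 and 277 in Ctrl 1, 2 and 3 and 57, 84 and 70 in TKO.

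**Figure D1:**
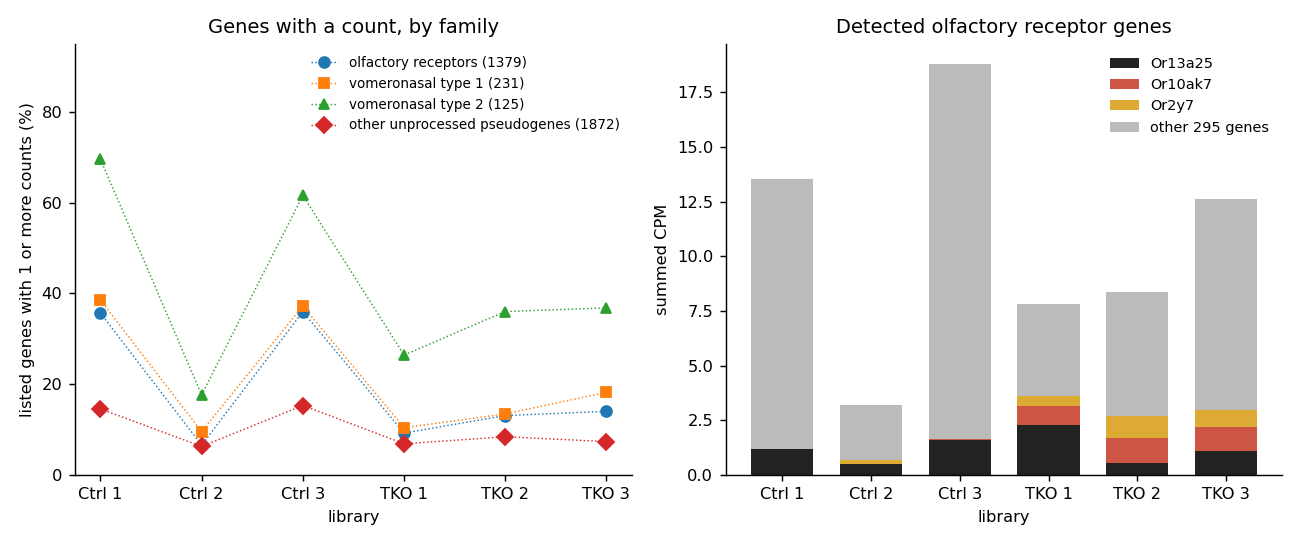
Left, percentage of listed genes with 1 or more counts in each library for olfactory receptors, both vomeronasal families and unprocessed pseudogenes outside the olfactory receptors, with the number of listed genes in brackets. Right, CPM summed over the 298 members in each library, stacked for *Or13a25*, *Or10ak7*, *Or2y7* and the other 295 genes. Ctrl 1 and Ctrl 3 are the highest libraries in all 4 families, and the coloured parts for *Or10ak7* and *Or2y7* are visible mainly in TKO.

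Ctrl 1 and Ctrl 3 also had high numbers of genes with a count in several other gene sets. Of 231 type 1 vomeronasal receptor genes, which detect pheromones in the vomeronasal organ, 89, 22 and 86 had a count in Ctrl 1, 2 and 3 and 24, 31 and 42 in TKO 1, 2 and 3. For 125 type 2 vomeronasal receptor genes the numbers were 87, 22 and 77 in Ctrl and 33, 45 and 46 in TKO. Unprocessed pseudogenes outside the olfactory receptors, 1872 in number, had 272, 117 and 286 genes with a count in Ctrl and 128, 157 and 137 in TKO. The summed level of these pseudogenes did not follow that order, with 52.8, 39.0 and 58.9 CPM in Ctrl and 51.3, 46.7 and 53.9 CPM in TKO. Over all 55536 listed genes, 31058, 25598 and 30237 had a count in Ctrl and 26150, 26854 and 25002 in TKO. Ctrl 1 and Ctrl 3 thus had more genes with a count than every other library in each of these sets. Bitter taste receptor genes, 40 in number, did not share this order, with 6, 7 and 13 genes with a count in Ctrl and 7, 7 and 2 in TKO. The part of the spread between libraries in the receptor counts was not tested.

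The summed level of the members was likewise spread within Ctrl. It was 13.5, 3.20 and 18.8 CPM in Ctrl 1, 2 and 3 and 7.82, 8.36 and 12.6 CPM in TKO 1, 2 and 3. The Ctrl mean of 11.8 ± 7.93 CPM and the TKO mean of 9.60 ± 2.63 (SD, n = 3 each) gave a log2 ratio of -0.30, against a pooled SD of 0.997 on the log2 scale. With single libraries left out the log2 ratio ran from -0.75 (without Ctrl 2) to 0.20 (without Ctrl 3), and with members that overlap another gene left out it was -0.65. Without both Ctrl 1 and Ctrl 3, which leaves Ctrl 2 alone as the control, it was 1.59, and without TKO 3 as well it was 1.34, so the direction of the summed level rested on single libraries. With *Or13a25*, *Or10ak7* and *Or2y7* left out, the other 295 members summed to 12.4, 2.52 and 17.1 CPM in Ctrl and to 4.21, 5.68 and 9.66 CPM in TKO. Without Ctrl 1 and Ctrl 3, 117 receptor genes would have reached 10 counts in place of 298.

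Single members were unevenly spread over the groups. In Ctrl 178 members had 10 or more counts over the 3 libraries and in TKO 102 did, with 32 members in both. The mean CPM was higher in TKO for 102 members and lower for 196. The highest count of a member was in Ctrl 3 for 106 members, in TKO 3 for 69, in Ctrl 1 for 66, in TKO 2 for 28, in TKO 1 for 15 and in Ctrl 2 for 14. Because a member could pass the rule through the counts of 1 library alone, these splits describe which libraries held the reads.

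**Figure D2:**
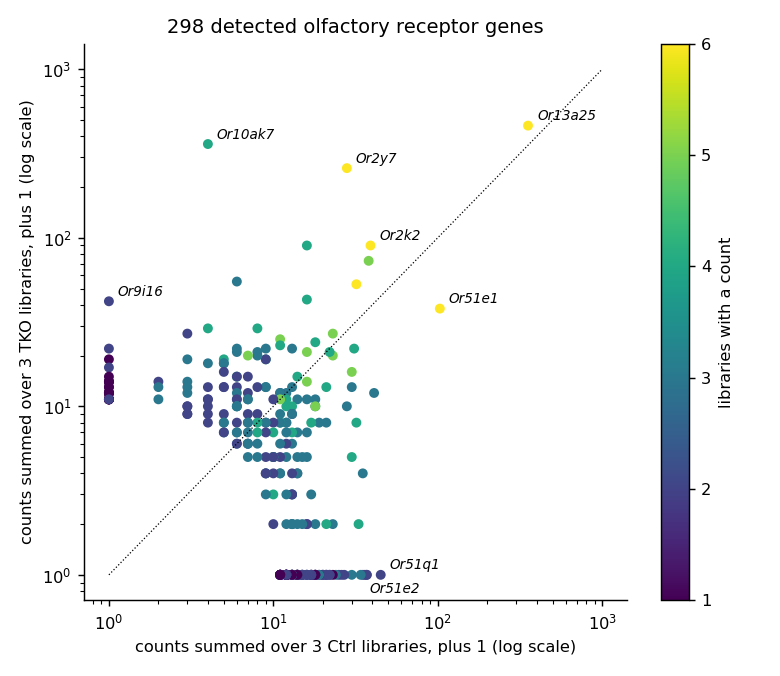
Counts of each of the 298 members summed over the 3 Ctrl libraries (x) and the 3 TKO libraries (y), each plus 1 on a log scale, coloured by the number of libraries with a count. The dotted line marks equal counts. *Or10ak7* lies far above it, *Or13a25* lies near it with the highest total, and most members lie under 30 counts on both axes.

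The comparison of TKO with Ctrl sets the RNA of each receptor gene in mosaic deletion of *Suv39h1* and *Setdb1* beside that without it, all on the *Suv39h2* null background. *Or10ak7* was the single member called, at an adjusted p-value under 0.05 and a log2 fold change above 1. Over all 20622 tested genes 27 were called higher in TKO (0.131%). EdgeR called no tested gene lower (at p under 0.05 before adjustment 837 were higher and 416 lower), and DESeq2 on the same genes called 21 lower. Among the 10 tested members, 7 had a positive and 3 a negative log2 fold change, with a median of 0.73 beside 0.01 over all tested genes. These 10 passed the filter through their own counts and are not a sample of the family.

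*Or10ak7*, a class II receptor, had 0, 0 and 3 counts in Ctrl 1, 2 and 3 and 101, 125 and 133 counts in TKO 1, 2 and 3. Every TKO library was far above every Ctrl library, and the TKO libraries were close to each other. *Or10ak7* met the rule and passed the filter through its TKO counts alone, so its direction was fixed by the choice of members. The level in TKO was 1.03 ± 0.148 CPM (SD, n = 3), at least 37.9-fold higher than the floor of 3 counts per Ctrl library. The fitted log2 fold change was 6.67 ± 0.93 (SE), with an adjusted p-value of 0.0325 by edgeR. The adjusted p-value was 0.0751 with sex as a factor, and with single libraries left out it ranged from 0.0381 to 0.153, staying under 0.05 only without TKO 3.

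*Or10ak7* lies at chr4:118787268-118795809 on the minus strand of GRCm39, with 2 exons, inside an intron of the long non-coding RNA gene *Gm12865* (chr4:118730229-118855158, same strand). *Gm12865* had 7, 6 and 5 counts in Ctrl and 123, 200 and 109 in TKO, with no overlap between groups. Its log2 fold change was 4.502 ± 0.553 (SE) with an adjusted p-value of 0.0167 by edgeR, so the host gene was called as well. Between the start of *Or10ak7* and that of its host, 3.45 kb from the receptor, the processed pseudogene *Gm12856* on the same strand had 3, 8 and 3 counts in Ctrl and 47, 19 and 32 in TKO. The groups of *Gm12856* did not overlap, but its log2 fold change of 2.75 ± 0.86 (SE) had an adjusted p-value of 0.524 by edgeR. With gene counts alone, reads from an *Or10ak7* transcript and from an unspliced or longer transcript of the host cannot be told apart.

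The other receptor genes around it did not share this pattern. The 6 other *Or10ak* genes within 130 kb held 33 counts in all, 26 in Ctrl and 7 in TKO. *Or10ak8*, which lies 12.6 kb downstream in the span of the same host gene and on the same strand, had 0, 0 and 0 counts in Ctrl and 0, 7 and 0 in TKO. *Or10ak16*, on the opposite strand within the host, had 4, 0 and 8 counts in Ctrl and none in TKO. *Gm12866*, a long non-coding RNA gene 116 kb away, had 52, 7 and 28 counts in Ctrl and 12, 1 and 18 in TKO, and its groups overlapped.

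**Figure D3:**
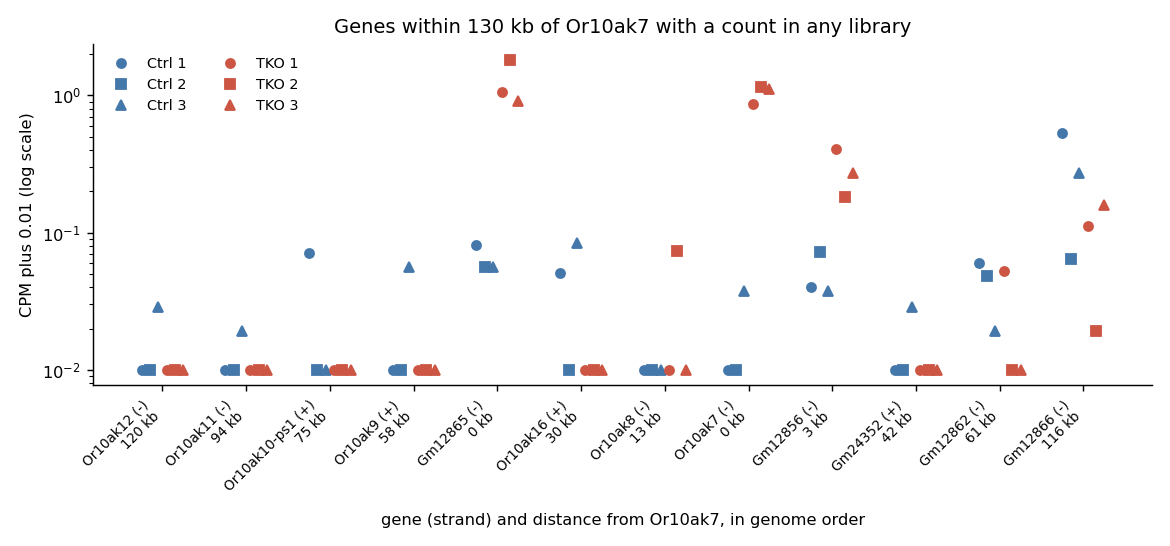
CPM plus 0.01 (log scale) in each library for the genes within 130 kb of *Or10ak7* that held a count in any library, in genome order with strand and distance. All 3 TKO libraries lie above all 3 Ctrl libraries for *Gm12865*, *Or10ak7* and *Gm12856*, and the *Or10ak* neighbours lie at or near 0 counts.

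The bases directly upstream of *Or10ak7* and *Gm12865* are shown because both called genes lie at 1 locus with separate annotated starts. Each window holds the 250 bases before the annotated start of GRCm39, read 5′ to 3′ on the minus strand, at chr4:118795810-118796059 for *Or10ak7* and chr4:118855159-118855408 for *Gm12865*. Capitals mark matches to TAATTA, a homeodomain core, which reads the same on either strand, so 1 search covers both.
upstream of Or10ak7: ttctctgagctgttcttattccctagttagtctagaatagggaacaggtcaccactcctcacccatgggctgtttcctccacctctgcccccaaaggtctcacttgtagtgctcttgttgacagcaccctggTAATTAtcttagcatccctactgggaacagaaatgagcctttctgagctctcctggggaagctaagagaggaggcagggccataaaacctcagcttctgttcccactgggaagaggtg
upstream of Gm12865: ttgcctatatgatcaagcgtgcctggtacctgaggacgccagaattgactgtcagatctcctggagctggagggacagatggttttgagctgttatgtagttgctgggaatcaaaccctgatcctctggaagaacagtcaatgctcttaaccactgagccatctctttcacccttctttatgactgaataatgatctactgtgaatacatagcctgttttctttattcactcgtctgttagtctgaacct
The *Or10ak7* window held 1 match to TAATTA, and the *Gm12865* window held 0. Among windows of the same length, TAATTA occurred upstream of 6.90% of all 78287 annotated genes, 21.9% of the 1382 receptor genes and 21.8% of the 298 members. The windows were not matched for base composition, so these shares do not measure an excess of homeodomain sites. The *Or10ak7* window held 0 CpG dinucleotides with a G and C content of 50.8%, and that of *Gm12865* held 3 with 44.4%.

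*Or2y7* was the member with the next smallest p-value. This pseudogene had 2, 22 and 3 counts in Ctrl 1, 2 and 3 and 53, 111 and 94 counts in TKO 1, 2 and 3. Each TKO library was above the highest Ctrl library, Ctrl 2, which held most of the Ctrl counts. The log2 fold change was 3.29 ± 0.83 (SE, n = 3 per group). Its adjusted p-value by edgeR was 0.296 (0.00269 unadjusted), and it was not called. DESeq2 on the same genes gave an adjusted p-value of 0.0136.

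*Or2y7* lies at chr11:52046177-52047110 on the minus strand, wholly within an exon of *Gm67348*, a long non-coding RNA gene annotated at chr11:52045549-52058986 on the same strand and absent from the count table. Its receptor neighbours were *Or2y8*, with 0, 0 and 6 counts in Ctrl and 0 in TKO, and *Or2y6*, with 0, 0 and 12 counts in Ctrl and 0 in TKO. The nearest broadly expressed gene in the surrounding 60 kb, *Ppp2ca*, which encodes a catalytic subunit of protein phosphatase 2A, had a log2 fold change of -0.07 ± 0.14 (SE) with an adjusted p-value of 0.9998 by edgeR.

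*Or2k2*, a class II receptor, was the other member without overlap between groups that was higher in TKO. It had 3, 11 and 24 counts in Ctrl and 29, 32 and 28 in TKO, with Ctrl 3 close below the TKO libraries. Its log2 fold change was 1.17 ± 0.86 (SE) with an edgeR adjusted p-value of 0.9998 (0.202 unadjusted). *Ecpas*, which encodes a proteasome adaptor and lies 9.52 kb away, had a log2 fold change of 0.15 ± 0.14 (SE).

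*Or51e1* and *Or51e2* are class I receptors that are also known outside the nose, where *Or51e1* responds to short fatty acids and *Or51e2* to acetate and propionate. *Or51e1* had 22, 43 and 37 counts in Ctrl and 14, 12 and 11 in TKO, with all TKO libraries below all Ctrl libraries. The difference was -1.49 ± 0.70 on the log2 scale (SE, n = 3 per group), with an edgeR adjusted p-value of 0.861 (0.0593 unadjusted). *Or51e2*, 26.4 kb away on the opposite strand, had 8, 20 and 5 counts in Ctrl and 0, 0 and 0 in TKO, at least 3.65-fold lower in TKO against the floor of 3 counts per TKO library. *Or51e2* is a member through its Ctrl counts alone, so this direction was fixed by the choice of members. It did not pass the filter, and in the fit on all 29058 genes with 10 or more counts in total the adjusted p-value by edgeR was 0.726 (0.0164 unadjusted). *Trim68*, a ubiquitin ligase gene beside them, had a log2 fold change of -0.04. *Or51e1* lies at chr7:102351422-102361271 (plus) and *Or51e2* at chr7:102387718-102408685 (minus). They were detected in Ctrl 2 too, the library in which most members had no reads.

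*Or13a25* had the most reads of all members, with 115, 65 and 173 counts in Ctrl and 270, 60 and 132 in TKO. The groups overlapped fully, and the log2 fold change was 0.27 ± 0.59 (SE) with an adjusted p-value of 0.9998 by edgeR. Its sign turned without Ctrl 2 (-0.08) and without TKO 1 (-0.42). *Or13a25* lies at chr7:140239843-140258493 and shares exon sequence on the opposite strand with *Gm39112*, not listed in the table, and with the pseudogene *Or12m1-ps1*, which had 13, 0 and 0 counts in Ctrl and 3, 0 and 0 in TKO. *Or13a17*, its closest relative and neighbour at 3.37 kb, had 15, 0 and 22 counts in Ctrl and 39, 7 and 26 in TKO, with overlapping groups and a log2 fold change of 0.78 ± 1.22 (SE).

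The remaining 4 tested members had overlapping groups, and none was called. *Or8b53* had 7, 9 and 15 counts in Ctrl and 20, 18 and 14 in TKO, with a log2 fold change of 0.68. *Or1j10* had 1, 0 and 14 counts in Ctrl and 12, 0 and 30 in TKO, with a log2 fold change of 1.31. *Or10h5*, which lies inside *Zfp955a* on the same strand, had 17, 0 and 13 counts in Ctrl and 20, 1 and 0 in TKO, with a log2 fold change of -0.68. *Or5b124* had 26, 0 and 14 counts in Ctrl and 11, 0 and 0 in TKO, with a log2 fold change of -2.02. With single libraries left out, *Or10h5* ran from -4.16 (without TKO 1) to 0.00391 (without Ctrl 1), a change of sign, *Or1j10* from 0.15 (without TKO 3) to 4.36 (without Ctrl 3), and *Or5b124* from -6.89 (without TKO 1) to -1.02 (without Ctrl 1) on the log2 scale. The last 3 genes had reads in some libraries of each group and none or nearly none in others.

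**Figure D4:**
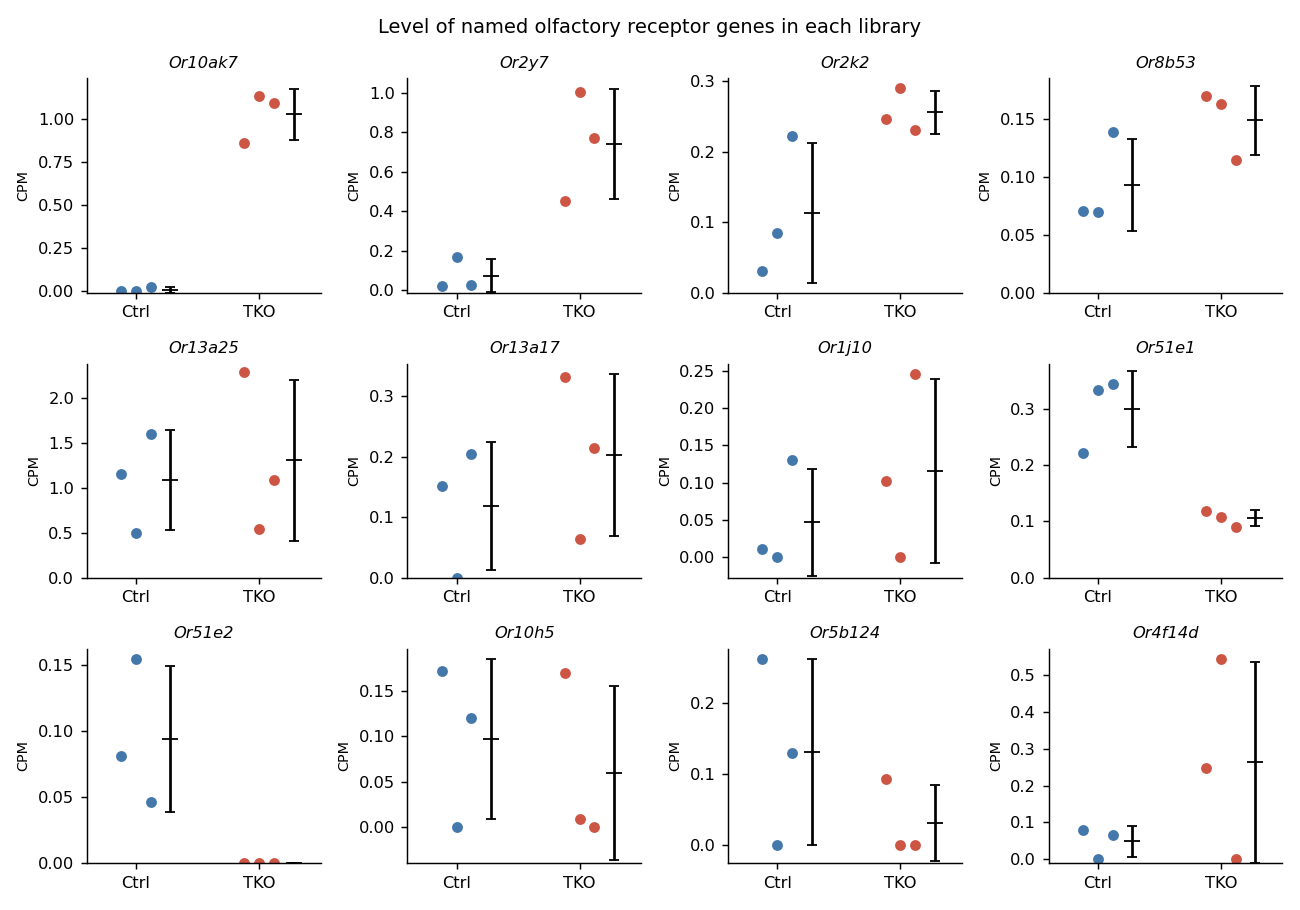
CPM in each library for the 10 tested members, *Or51e2* and *Or4f14d* (points, in order of replicate number), with the mean and SD of each group of 3 in black. The groups do not overlap for *Or10ak7*, *Or2y7*, *Or2k2*, *Or51e1* and *Or51e2*, and they overlap in the other 7 panels.

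Reads in a single group were found for 120 members, of which 73 had them in 2 or more libraries and 8 in all 3 libraries of the group. No share over all genes is given beside the numbers in this and the next paragraph, so they only describe where the reads lay. With 10 or more counts in TKO and at most 3 in Ctrl there were 40 members, of which only *Or10ak7* had reads in all 3 TKO libraries. In the other 39, 1 library held 50% or more of the TKO counts, and in 28 of the 40 the highest library was TKO 3. These 40 genes are members through their TKO counts, so their direction restates the choice. *Or9i16*, with 0 counts in every Ctrl library and 31, 10 and 0 in TKO, had the next highest total. *Or4f61* had 2, 0 and 1 counts in Ctrl and 8, 20 and 0 in TKO, *Or52r1b* had 26 counts in TKO 3 and 2 in Ctrl 3, and the pseudogene *Or51h7* had 18 counts, all in TKO 3. *Or4f14d*, which had more than 3 counts in Ctrl, held 8, 0 and 7 counts there and 29, 60 and 0 in TKO.

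In the opposite direction, 117 members had 10 or more counts in Ctrl and at most 3 in TKO, and 100 of these had no read in Ctrl 2. *Or51q1* had 29, 0 and 15 counts in Ctrl and none in TKO. *Or5ac15* had 15, 0 and 19 counts in Ctrl and 0, 0 and 3 in TKO, *Or10ag54* had 7, 0 and 29 and none, and *Or2y1g* had 14, 0 and 22 and none. These genes followed Ctrl 1 and Ctrl 3. A few had reads in all 3 Ctrl libraries, among them *Or7c19*, with 11, 8 and 4 counts in Ctrl and none in TKO, *Or7e178*, with 4, 17 and 8 and none, and *Or8s5*, with 1, 4 and 27 counts in Ctrl and 0, 0 and 1 in TKO. These genes are members through their Ctrl counts and were named for low counts in TKO, so their direction restates the choice.

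Groups without overlap need reads in all 3 libraries of a group, which the 47 members with reads in 1 library and the 115 with reads in 2 could not have. The shares of members are therefore given beside those of all genes as a description. All TKO libraries lay above all Ctrl libraries for 3 members (1.01%), against 5.15% of the 29058 genes with 10 or more counts in total, and below them for 13 members (4.36%), against 5.17%. In the fit on those 29058 genes, 3 members (1.01%) were higher and 12 (4.03%) lower at an unadjusted p-value under 0.05, beside 3.44% and 2.09% of all genes. *Or10ak7* was the single member called in that fit. The median log2 fold change of members there was -0.94, beside -0.00 over all genes. The highest count of a member lay in Ctrl 1 or Ctrl 3 for 172 of the 298.

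By position, the members were scattered over the receptor clusters rather than gathered in a few. Receptor genes no more than 1 Mb apart were joined into 60 clusters, of which 18 were single genes and 46 held a member. Members lay on 17 of the 19 chromosomes with receptor genes. Chromosome 2 held 77 of them, chromosome 7 held 62 and chromosome 9 held 31. The 17 clusters of 20 or more listed genes held 1189 listed genes and 232 members, and 0% to 33.3% of their genes were members, with a median of 19.4%. Some smaller clusters had higher shares, such as 7 of 10 listed genes (70%) at chr15:98083894-98400518.

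The largest cluster, at chr2:85161123-90234241, had 283 listed genes and 52 members, led by *Or4b13* with 41 counts. The class I cluster at chr7:102125786-105018562 had 157 listed genes and 32 members, led by *Or51e1*. The cluster at chr9:37620260-40101430 had 121 listed genes and 20 members, led by *Or8b53*, and that at chr19:11804167-13899230 had 85 listed genes and 20 members, led by *Or5b124*. Among the 17 clusters of 20 or more listed genes, the highest share was in the cluster at chr2:36175035-37222784, with 12 of 36 listed genes (33.3%), led by *Or1j10*. At the other end of these 17, none of the 26 listed genes at chr11:58344931-59505886 was a member.

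In all 17 of these clusters, Ctrl 1 and Ctrl 3 each had more genes with a count than Ctrl 2 and than every TKO library. In the largest cluster 96, 13 and 95 genes had a count in Ctrl 1, 2 and 3 and 19, 24 and 39 in TKO 1, 2 and 3, and in the class I cluster 56, 6 and 61 against 19, 22 and 21. The summed CPM of the groups overlapped in each of the 17. Over all 60 clusters, the groups did not overlap in 5, all of them small: TKO was higher in 3 and lower in 2. The shares over all genes with 10 or more counts, 5.15% and 5.17%, are of single genes. The clusters had no count filter, so those shares are not a like measure. These 5 clusters largely restate single receptor genes. TKO was higher in the 15-gene cluster of *Or10ak7*, the 3-gene cluster of *Or2y7* and for *Or2k2*, which stands alone, and lower in the 8-gene cluster on chromosome 11 led by *Or1x2* and for *Or7c19*, which stands alone. Both lower clusters had counts in Ctrl alone, in all 3 Ctrl libraries. Their members were detected through Ctrl, so the direction was fixed by the choice of members.

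**Figure D5:**
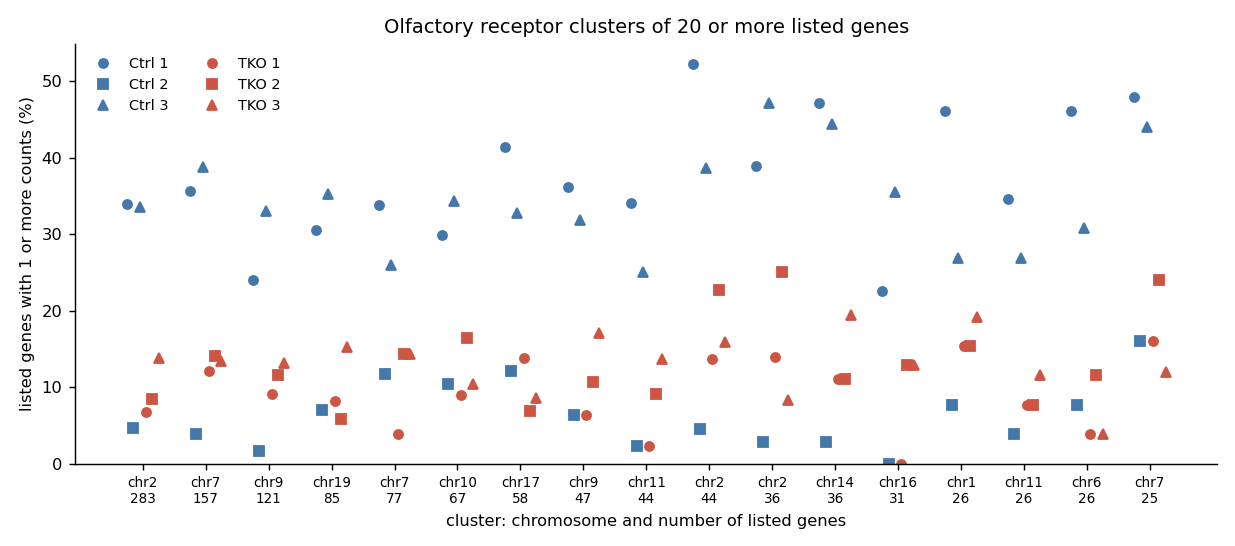
Percentage of listed genes with 1 or more counts in each library, for the 17 clusters with 20 or more listed genes, ordered by size and named by chromosome and number of listed genes. Circles, squares and triangles are replicates 1, 2 and 3. In each cluster the circle and the triangle of Ctrl lie above the other 4 points.

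Annotated length went with detection. The median exon length was 3957 bases for members and 2240 for listed receptor genes under the threshold, and the share of members was 6.09%, 12.8%, 23.3% and 44.3% in 4 groups of equal size from the shortest to the longest exons. Class I and class II receptors were detected at close shares, with 33 of 160 listed genes (20.6%) and 265 of 1219 (21.7%). Of 1193 listed protein-coding receptor genes 287 (24.1%) were members, and of 192 listed genes annotated or named as pseudogenes 11 (5.73%) were. The split by gene type was not separated from that by exon length. A span overlapping another annotated gene was found for 58 members (19.5%), beside 15.2% of listed receptor genes, and 37 members shared exon sequence with another gene, for which reads cannot be assigned with certainty.

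None of the tested genes of olfactory signalling was called. Of 39 genes for odorant transduction, receptor trafficking, receptor choice and mature olfactory neurons, 28 were tested, with 0 called by edgeR, 1 higher and 2 lower at an unadjusted p-value under 0.05. Over all tested genes 4.06% were higher and 2.02% lower at that p-value. DESeq2 called 0 of them as well. Their median log2 fold change was 0.04, beside 0.01 over all tested genes, with 16 above and 12 below 0.

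Among the transduction genes, *Gnal*, which encodes the olfactory G protein alpha subunit, had 5.34 ± 0.972 CPM in Ctrl and 7.25 ± 1.42 in TKO (SD, n = 3 each), with an adjusted p-value of 0.969 by edgeR. *Adcy3*, the adenylyl cyclase of olfactory cilia, had 45.2 ± 6.06 and 45.7 ± 0.804 CPM. *Cnga2*, the main subunit of the olfactory cyclic nucleotide-gated channel, had 0, 7 and 0 counts in Ctrl and 4, 0 and 21 in TKO. Of the chaperones that bring receptors to the cell surface, *Rtp1* had 0, 5 and 0 counts in Ctrl and none in TKO, and *Rtp2* had 10, 0 and 0 and none. *Reep1*, a related trafficking gene, had 4.67 ± 1.42 CPM in Ctrl and 2.40 ± 0.494 in TKO, with an edgeR adjusted p-value of 0.593 (0.0138 unadjusted).

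Regulators of receptor choice were readily measured. *Lhx2*, a homeodomain factor that binds receptor enhancers and is also known in hair follicle progenitors, had 3962, 4461 and 4371 counts in Ctrl and 3915, 4227 and 9907 in TKO, where TKO 3 stood apart. *Kdm1a*, the histone demethylase LSD1, had 131 ± 2.02 and 135.8 ± 7.195 CPM. *Nfib* had the highest level of the list, with 682 ± 107 and 781 ± 25.4 CPM. *Atf5*, a stress-response factor induced upon receptor choice, had 66.2 ± 11.8 and 43.9 ± 4.25 CPM, and *Bptf*, a nucleosome remodelling subunit, 197 ± 6.91 and 248 ± 29.9 CPM. Their unadjusted p-values were 0.00438 and 0.0378, and their adjusted p-values 0.350 and 0.782, by edgeR.

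Markers of mature olfactory sensory neurons differed widely in level. *Omp*, the olfactory marker protein gene, had 69, 14 and 50 counts in Ctrl and 81, 63 and 34 in TKO, at 0.423 ± 0.296 and 0.513 ± 0.210 CPM. *S100a5* had 0 counts throughout, and *Gng13* had 13 counts in Ctrl 3 only. *Cd36*, also transcribed in endothelial, fat and immune cells, had 3.93, 6.20 and 4.22 CPM in Ctrl and 4.15, 15.4 and 7.03 CPM in TKO, with overlapping groups. It was the most abundant of a second list of 6 mature olfactory neuron genes, *Omp* among them, which summed to 4.90, 6.65 and 5.22 CPM in Ctrl and 5.24, 16.7 and 7.57 CPM in TKO. The 8 olfactory neuron markers summed to 54.0, 43.5 and 55.9 CPM in Ctrl and 53.7, 54.9 and 52.5 CPM in TKO, of which *Adcy3*, also transcribed in other cells, was the most abundant. Within Ctrl, *Omp* was lowest in Ctrl 2, at 0.108 CPM against 0.697 in Ctrl 1 and 0.464 in Ctrl 3, and in TKO it was 0.688, 0.570 and 0.280 CPM in TKO 1, 2 and 3. By CPM within Ctrl, *Adcy3* (46.7, 38.5 and 50.3), *Stoml3* (8, 0 and 11 counts) and *Ano2* (4, 4 and 13 counts), of the same list, were also lowest in Ctrl 2. *Gnal* was lowest in Ctrl 3 (6.46, 4.80 and 4.76 CPM). *Cnga2* and *Rtp1*, of this list too, had reads in Ctrl 2 but in no other Ctrl library. The part of olfactory neuron RNA in the receptor counts was not tested. Of the other markers, 6 Merkel cell genes summed to 3.77, 3.78 and 6.33 CPM in Ctrl and 1.63, 0.924 and 1.82 in TKO, and 6 skeletal muscle genes to 1.87, 2.88 and 2.71 CPM and 5.67, 9.15 and 11.7 CPM. Fibroblast genes were far more abundant in these sorted cells. The 7 genes led by *Col1a1* summed to 1207, 3371 and 3021 CPM in Ctrl and 2171, 2570 and 2819 CPM in TKO. Their groups overlapped, and Ctrl 1 was lowest. Groups overlapped as well for the sums of immune, endothelial, erythroid, melanocyte, and neuron and Schwann cell genes. The highest of those sums was 130 CPM, for erythroid genes in TKO 3. The part of any of these cell types in the receptor counts, those of *Or51e1*, *Or51e2*, *Or10ak7* and *Or2y7* included, was not tested.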

How the data were processed

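Bulk RNA-seq of sorted E16.5 basal keratinocytes was analysed in 3 Ctrl and 3 TKO samples. The authors depleted rRNA, trimmed paired reads with fastp, ran the STAR aligner and deposited unnormalized read counts for each Ensembl gene, with 1 column per library and no pooling. The study's methods name GRCm39 and the submitters' processing notes GRCm38, and the counting program, its annotation and its strand setting are not given in the sources used here. Of 55536 rows, 51477 matched GENCODE vM39, which gave symbols, exon lengths and positions. All 6 columns were used and 0 were left aside.

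Counts were compared in R 4.3.3 with edgeR 4.0.16 (filterByExpr, minimum count 10, minimum total 15, TMM scaling, robust glmQLFit and glmQLFTest). The 20622 genes kept were adjusted together by the Benjamini-Hochberg method, and a gene was called where its adjusted p-value was under 0.05 with a log2 fold change above 1 in size. CPM are counts scaled to the TMM-adjusted library size. The biological coefficient of variation was 36.5%. A floor of 3 counts per library gave lower bounds of folds, which cover counting error only. The function was tested on simulated data. Alternatives were DESeq2 1.42.0, RLE size factors, other filters and thresholds, the replicate block, sex as a factor, no robust estimation and each library left out.

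Members, gene lists and tests were chosen with earlier results of these data known, and no list was tested as a set. Named members are those called, the 12 highest per kilobase, all tested ones, those with 10 or more counts in 1 group and at most 3 in the other (up to 10 per direction by total, of which some are described), those at the threshold and those leading a described cluster. *Or7c19* in its cluster, *Or4f14d* and neighbouring genes are named by the same rule or for their position. Sequences were read from GRCm39 with Python 3.11.15 and compared with edlib 1.3.9.post1, where identity is 100% minus the edit distance over the longer sequence. Figures were drawn with matplotlib 3.10.9.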

Additional observations from a re-analysis of the deposited data

How the results depend on the processing

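The counts of called genes were sensitive to the filter and the tool. Against 27 genes, 235 were called with no filter beyond 1 count in total, 60 with 10 or more counts in total, 9 with 10 or more in every library, 214 and 226 by DESeq2 on the same genes and in its default workflow, and 11 at an adjusted p-value under 0.01. Leaving out single libraries gave 7 to 81. Of the receptor genes, against 1 called, 2 were called with no filter and in both DESeq2 fits (*Or10ak7* and *Or2y7*), and 0 with sex as a factor and at 0.01, and 0 to 1 with single libraries left out. With 10 or more counts in every library 0 were called, but that filter removes *Or10ak7* before the test. The log2 fold change of *Or10ak7*, 6.67, was 6.69 with sex as a factor (adjusted p = 0.0751) and ranged from 6.06 to 9.89 with single libraries left out.

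*Or2y7* passed 0.05 with no filter (log2 fold change 3.25), with DESeq2 on the same genes (3.31) and in its default workflow (3.31). With single libraries left out, *Or13a25* ranged from -0.42 (without TKO 1) to 0.65 and was also negative without Ctrl 2 (-0.08), and *Or10h5* ranged from -4.16 to 0.00391 (without Ctrl 1). *Or2y7* ranged from 2.87 to 4.88, *Or2k2* from 0.73 to 2.11 and *Or13a17* from 0.19 to 1.44. The number of detected receptor genes was 601, 89 and 12 at totals of 5, 20 and 50. None of the olfactory signalling genes was called in any fit by edgeR or DESeq2.

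Alternatives chosen after the data were seen left out Ctrl 1 and Ctrl 3. They left 1 gene called, no receptor gene called, *Or10ak7* at 9.95 (adjusted p = 0.419), *Or10h5* at 5.86, *Or5b124* at 4.95, 117 receptor genes detected and a log2 ratio of the summed level of 1.59 against -0.30, or 1.34 with TKO 3 also left out. The lone Ctrl library is there assumed to vary like the TKO libraries.

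A replicate block in the fit gave 45 called genes, of which 44 were higher, and *Or10ak7* was called with a log2 fold change of 6.85 (adjusted p = 0.0315). Libraries of the same number correlated at 0.168, 0.0873 and 0.127 in their deviations from the group means, and those of different numbers from -0.161 to 0.0398. One correlation was under 0.1 and no label ties the numbers to litters, so the numbers were not taken as pairs. The study generally used littermates without the recombinase as controls, and each sample correlated best with its own number, as a hint from the data, so pairing by litter was not settled. The block changed no other receptor call.

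At this depth, most members are too sparse for a test, and a count of 0 allows up to 3 counts per library. Groups of 3 limit each adjusted p-value to what the spread shared over genes allows.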
